A study of Mus musculus with 12 samples.

Results

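Trav10 and Trav16 are V segments of the mouse T cell receptor alpha locus, and each has a D copy farther upstream, Trav10d and Trav16d-dv11. They were chosen by row name alone, with all their Traj partners, in every table that lists them. These were 4 of the 85 Trav segments listed in any table and 4 of the 79 listed in all 12. With 43 Traj segments they made 172 of the 3397 Trav and Traj pairs listed in every table. The members had values in all 12 libraries, and together they held between 4.37% and 6.28% of a table's total.

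The libraries held Tcra transcripts of CD3e-negative CD4+CD8+ (DP) thymocytes, amplified by 5' template-switch RACE from a primer in the constant segment Trac. The groups were mice homozygous for the DPASE knockout (KO) and mice homozygous for the wild-type allele (WT), each with 2 libraries for steady state, 2 for 24 h and 2 for 48 h following a 1 mg tamoxifen dose. All mice, KO and WT, were labelled as carrying TcrdCreER, a tamoxifen-activated Cre recombinase in the Tcrd locus, and a ZsGreen reporter at Rosa26, on C57BL/6J with strain 129 sequence at the Tcra and Tcrd loci. The mice were 4 to 6 weeks old. The genotype labels give the reporter as Rosa26ZsG/+, whereas the strain labels give Rosa26ZsG/ZsG. At 24 h and 48 h the ZsGreen-positive cells were sorted, so these cohorts consist of cells in which the Tcrd-driven Cre had been active. The design text mentions 2 mice in a group, but no label ties a library to its own mouse, so p-values reflect library-to-library spread, part of which may be technical. The tables hold no value for DPASE, CD3e, CD4 or CD8, so neither the genotype nor the sort has a check in the data. Of the pairs that mark other cells of the thymus, Trav11 and Trav11d with Traj18 (invariant NKT cells) together held at most 0.0504% of a table and Trav1 with Traj33 (MAIT cells) at most 0.0503%.

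In thymocytes the Tcra locus rearranges in successive rounds. The first rounds join Trav segments near the J array to Traj segments at its 5' end, which carry the highest Traj numbers, and later rounds replace that join with Trav segments farther upstream and Traj segments farther 3'. A central part of the V array is duplicated, which gives many Trav families a D copy on the upstream side. Trav16d-dv11 carries a dv name because it can also rearrange to segments of the delta locus, which lies inside the alpha locus. DPASE is, as background from the field, a regulatory element of the Rag1 and Rag2 locus, whose products cut the DNA at these segments.

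The positions of the 4 genes were read from the GENCODE M21 annotation of build GRCm38, a C57BL/6J assembly. The deposited tables name no build, and the sequence of a strain 129 locus can differ from it. All 4 are annotated as TR_V genes of 2 exons on the plus strand of chromosome 14. Trav10d lies at chr14:52810934-52811496, 1346 kb before the start of Traj58, and its counterpart Trav10 lies at chr14:53505727-53506286, 651.0 kb before it. Trav16d-dv11 lies at chr14:53047287-53047821, 1109 kb before Traj58, and Trav16 at chr14:53743104-53743705, 414 kb before it. Among the 79 shared segments in row order, Trav10d was number 14, Trav16d-dv11 number 36, Trav10 number 48 and Trav16 number 71. This row order followed the chromosome for all 76 neighbouring steps among the 77 rows matched by name.

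The second exon, which encodes most of the variable region, is shown for both copies of each pair because a read can be assigned to a copy only where the copies differ. The Trav10d and Trav10 exons read as follows (chr14:52811206-52811496 and chr14:53505996-53506286, plus strand), with capitals at the bases that differ between them.
Trav10d: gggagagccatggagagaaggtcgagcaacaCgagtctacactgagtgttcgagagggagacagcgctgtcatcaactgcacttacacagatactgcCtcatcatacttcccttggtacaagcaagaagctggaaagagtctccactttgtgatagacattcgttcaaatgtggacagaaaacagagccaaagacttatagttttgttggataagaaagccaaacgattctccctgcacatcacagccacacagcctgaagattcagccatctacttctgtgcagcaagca
Trav10: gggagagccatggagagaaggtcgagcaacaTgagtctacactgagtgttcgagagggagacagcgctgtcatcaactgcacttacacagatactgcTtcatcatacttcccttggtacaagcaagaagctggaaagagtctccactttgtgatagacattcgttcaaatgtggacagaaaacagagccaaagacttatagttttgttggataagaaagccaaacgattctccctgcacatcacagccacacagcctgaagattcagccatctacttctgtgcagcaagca
These exons differed at 2 of 291 bases, T32C and T98C, given as the base of Trav10, the position from the 5' end of the exon and the base of Trav10d. The last 193 bases, which lie next to the join, were identical. The first 300 bases of the 301-base exons of Trav16d-dv11 and Trav16 (chr14:53047521-53047820 and chr14:53743405-53743704, plus strand) carry capitals on the same rule.
Trav16d-dv11: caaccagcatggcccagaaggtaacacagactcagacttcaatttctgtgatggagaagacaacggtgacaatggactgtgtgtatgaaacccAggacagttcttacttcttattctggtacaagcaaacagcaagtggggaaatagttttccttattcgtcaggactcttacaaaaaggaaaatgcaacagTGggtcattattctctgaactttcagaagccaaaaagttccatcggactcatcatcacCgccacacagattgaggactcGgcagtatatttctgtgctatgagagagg
Trav16: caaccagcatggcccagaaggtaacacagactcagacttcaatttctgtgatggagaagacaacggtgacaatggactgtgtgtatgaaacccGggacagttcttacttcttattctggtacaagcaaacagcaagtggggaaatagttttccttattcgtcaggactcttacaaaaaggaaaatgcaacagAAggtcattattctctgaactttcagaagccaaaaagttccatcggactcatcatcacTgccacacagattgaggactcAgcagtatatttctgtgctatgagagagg
They differed at 5 of 301 bases, G94A, A193T, A194G, T251C and A272G, with the base of Trav16 first, and their last 29 bases were identical. GRCm38 also annotates an N copy of each, Trav10n and Trav16n. The second exon of Trav10n differed from that of Trav10d at 3 bases and from that of Trav10 at 5. That of Trav16n differed from Trav16d-dv11 at 3 bases and from Trav16 at 4. None of the 79 segments listed in every table carries an N name, and the rows listed in only some tables were not searched for one. Neither the read length nor the way reads were assigned to near-identical copies is stated in the labels or headers. The split between a D copy and its counterpart is therefore uncertain, and by the second exon above all for Trav10. The first exons were not compared.

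A share below is the deposited fraction divided by the sum of all fractions in its own table, in percent. In 8 tables the fractions summed to about 1. In the other 4, replicate 2 of KO and WT at 24 h and at 48 h, they summed to between 1.97 and 1.99, and 43.5% to 56.7% of their pairs stood at 0, against 1.57% to 14.9% in the 8. Sequencing depth is unknown, so no counting interval was computed. At 24 h and 48 h the replicate number therefore cannot be told apart from the kind of table, and between 39 and 44 of the 79 segments differed more than 2-fold between the libraries of a group there, against 0 of 79 at steady state. Shares, ratios and mean Traj numbers at 24 h and 48 h are accordingly given library by library, replicate 1 first, and a mean ± SD printed for a group of 24 h or 48 h joins the unlike tables.

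Trav10 was the more abundant of its pair in every library. Trav10d held 0.496% and 0.494% of the KO tables at steady state, against 0.652% and 0.702% of the WT tables. At 24 h it held 0.384% and 0.933% in KO, against 0.468% and 1.09% in WT. At 48 h it held 0.443% and 0.772% in KO, against 0.639% and 0.992% in WT. KO lay below WT in all 6 same-numbered comparisons of Trav10d, without overlap at steady state, while at 24 h and 48 h the gap between replicates exceeded the gap between genotypes.

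Trav10 held 1.19% and 1.29% of the KO tables at steady state, against 1.165% and 1.204% of the WT tables. At 24 h its share was 1.09% and 2.27% in KO, against 1.15% and 2.62% in WT. The 48 h values were 1.27% and 2.04% in KO, against 1.36% and 3.20% in WT. The genotypes overlapped at each of the 3 samplings, and replicate 2 stood above replicate 1 by 1.60-fold to 2.35-fold in the 4 groups taken after tamoxifen.

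Trav16d-dv11 held 1.54% and 1.56% of the KO tables at steady state, against 1.69% and 1.76% of the WT tables. At 24 h it held 0.855% and 0.465% in KO, against 1.16% and 0.664% in WT. The 48 h values were 1.42% and 0.745% in KO, against 1.78% and 0.925% in WT. KO lay below WT in all 6 same-numbered comparisons here too. After tamoxifen the replicates differed in the direction opposite to that of the Trav10 pair, with replicate 1 above replicate 2 by 1.75-fold to 1.93-fold.

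Trav16 was the only one of the 4 with a higher share in both KO libraries than in both WT libraries at steady state, at 1.65% and 1.39% in KO, against 1.26% and 1.2% in WT. At 24 h it held 2.68% and 1.51% in KO, against 2.43% and 1.91% in WT. The 48 h values were 1.67% and 0.809% in KO, against 1.16% and 1.01% in WT. The genotypes overlapped at 24 h and at 48 h. Such separation at steady state, or the same side in every same-numbered comparison, was not counted over the 79 segments. In the limma fit given below, 28 of the 79 differed at steady state at an unadjusted p under 0.05.

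**Figure D1:**
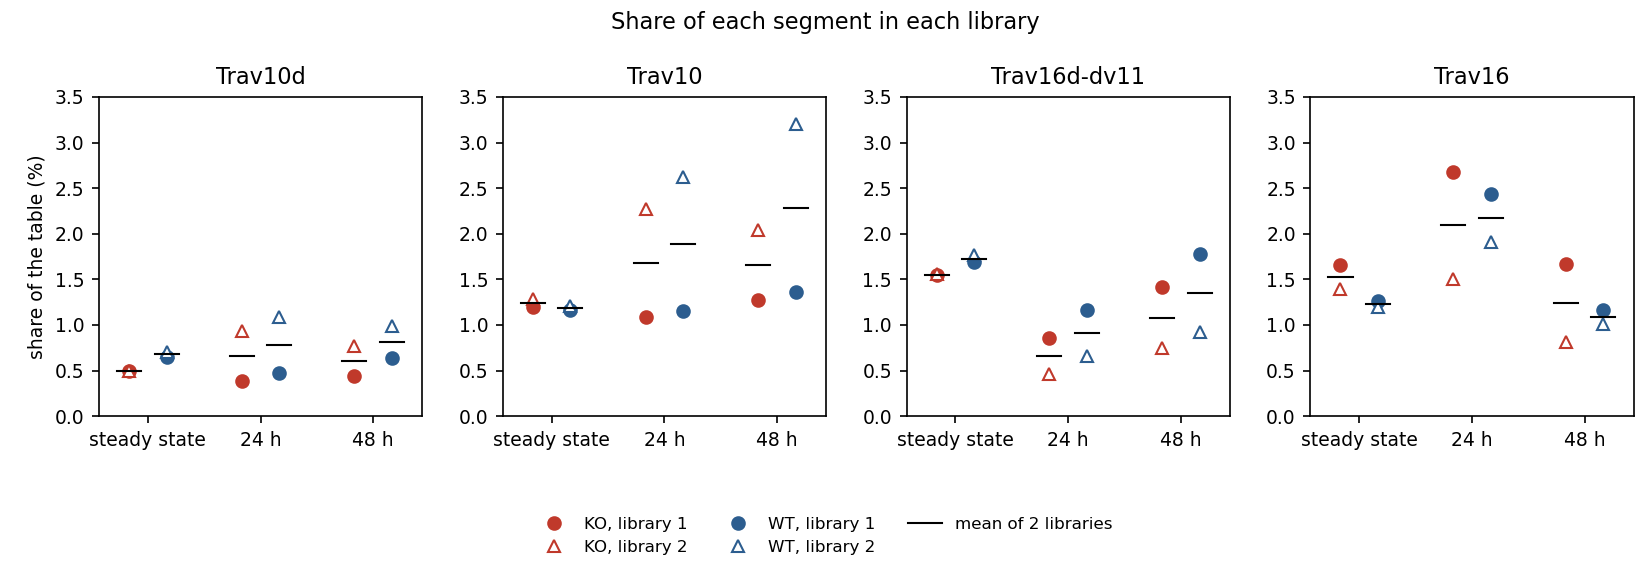
Share of each segment in percent of its table (y axis) in each of the 12 libraries, by sampling (x axis); filled circles are replicate 1, open triangles replicate 2, red KO, blue WT, and bars the mean of 2 libraries. At 24 h and 48 h Trav10 and Trav10d are higher in replicate 2 by at least 1.55-fold, and Trav16d-dv11 and Trav16 are lower in it, for Trav16 in WT by 1.28-fold and 1.15-fold, against 1.19-fold in KO at steady state.

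In the order of their levels at steady state, WT libraries had Trav16d-dv11 (1.73% ± 0.0513, SD, n = 2) above Trav16 (1.23% ± 0.0412), Trav10 (1.18% ± 0.0277) and Trav10d (0.677% ± 0.0349). Trav16 and Trav10 did not differ beyond their spread. In KO libraries Trav16d-dv11 (1.55% ± 0.0126) and Trav16 (1.52% ± 0.185) did not differ beyond their spread, and Trav10 (1.24% ± 0.0655) and Trav10d (0.495% ± 0.0016) followed.

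Limma on log2(percent + 0.01), fitted with a mean for each group, called 0 of 79 segments between KO and WT at steady state, at 24 h, at 48 h or in the mean of the 3 samplings at an adjusted p under 0.05 (0% in each comparison). At an unadjusted p under 0.05 it had 28, 0, 0 and 5 segments in these 4 comparisons. At steady state Trav10d differed by -0.44 ± 0.0923 (log2, SE; limma adjusted p = 0.117), which ranked 76 of 79 from the highest. At 24 h, where the replicates were far apart, Trav16d-dv11 had -0.47 ± 0.591 (limma adjusted p = 0.972). At steady state Trav16 stood at 0.30 ± 0.122 (adjusted p = 0.154), Trav16d-dv11 at -0.15 ± 0.088 (adjusted p = 0.246) and Trav10 at 0.06 ± 0.0941 (adjusted p = 0.611), where the median over all 79 segments was -0.04.

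Same-numbered libraries deviated together from their group means, so the fit with the replicate number as a block was made as well. The labels give the replicate number alone, and none ties a library to the same-numbered library of another group. The block and the calls it gives thus rest on a pairing read from these same values. At steady state it called 41 of the 79 segments (51.9%), 22 lower (27.8%) and 19 higher (24.1%) in KO, and among the 4 genes Trav10d fell by 0.44 (limma adjusted p = 0.0189) and Trav16 rose by 0.30 (adjusted p = 0.034). In the mean of the 3 samplings it called 34 segments (43%), 19 of them lower (24.1%). There Trav10d differed by -0.38 ± 0.0668 (limma adjusted p = 0.0165) and Trav16d-dv11 by -0.32 ± 0.0629 (adjusted p = 0.017), both lower in KO, while Trav10 (-0.15, adjusted p = 0.232) and Trav16 (0.10, adjusted p = 0.559) did not pass. At 24 h alone the block called 3 of the 79 segments (3.8%, all lower in KO) and at 48 h alone 1 (1.27%, lower in KO), none of them among these 4. Calls on 2 of the 4 genes, at steady state and in the mean, are thus close to the shares of 51.9% and 43% over all segments.

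Between 48 h and 24 h the mean changes of the copies of the Trav16 pair pointed in opposite directions. The 24 h and 48 h libraries overlapped in KO for both copies and in WT for Trav16d-dv11, but not in WT for Trav16. The 48 h minus 24 h difference of Trav16 was -0.79 ± 0.529 in KO and -0.99 ± 0.529 in WT (log2, SE), and that of Trav16d-dv11 was 0.70 ± 0.615 in KO and 0.54 ± 0.615 in WT. Without the block limma called 0 of 79 segments in KO and 0 in WT (0% each), with 6 and 7 at an unadjusted p under 0.05. With the block limma called 18 in KO (22.8%), 4 of them lower at 48 h (5.06%), and 37 in WT (46.8%), 13 of them lower (16.5%). Trav16 was among the lower ones in KO (limma adjusted p = 0.042) and in WT (adjusted p = 0.0119). Trav16d-dv11 did not pass with the block (adjusted p = 0.053 in KO and 0.0747 in WT). For Trav10d the changes were -0.04 in KO and 0.15 in WT, and for Trav10 0.04 in KO and 0.27 in WT, and none of these passed with the block (limma adjusted p from 0.362 to 0.954). The difference in this change between KO and WT was called for 0 of 79 segments by limma (0%), with 0 at an unadjusted p under 0.05 and 4 with the block.

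The balance between a D copy and its counterpart within a library does not depend on the table's total. Trav10d stood below Trav10 in 12 of 12 libraries, with a mean log2 ratio of -1.26 (exact sign-flip permutation test over 12 libraries, two-sided, adjusted p = 0.000977 over the 2 pairs, from the smallest p the test can give). This was the common position: 19 of the 33 D copies (57.6%) stood below their counterpart in all 12 libraries, and the median of their mean ratios was -1.197. Trav16d-dv11 had no constant position against Trav16. Its ratio was above 0 in 4 libraries and below 0 in 8, with a mean of -0.39 (exact sign-flip permutation adjusted p = 0.138), and at steady state alone the mean was 0.26.

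For Trav10d over Trav10 the log2 ratio was -1.25 and -1.36 in KO at steady state, against -0.83 and -0.77 in WT. It was -1.48 and -1.27 in KO at 24 h, against -1.28 and -1.26 in WT. The 48 h ratios were -1.50 and -1.39 in KO, against -1.08 and -1.68 in WT. The genotypes were apart at steady state only.

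For Trav16d-dv11 over Trav16 the log2 ratio was -0.10 and 0.16 in KO at steady state, against 0.42 and 0.55 in WT. At 24 h it was -1.64 and -1.68 in KO, against -1.06 and -1.51 in WT, below every other value of this pair. At 48 h it was -0.23 and -0.12 in KO, against 0.62 and -0.13 in WT. Thus Trav16d-dv11 made up 50.6% ± 3.24 of the pair in KO at steady state (SD, n = 2), against 58.4% ± 1.54 in WT, 23.9% ± 0.436 in KO at 24 h, against 29.1% ± 4.62 in WT, and 46.9% ± 1.40 in KO at 48 h, against 54.2% ± 9.05 in WT. Trav10d, by contrast, made up a mean of 26.6% to 36.4% of its pair over the 6 groups.

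**Figure D2:**
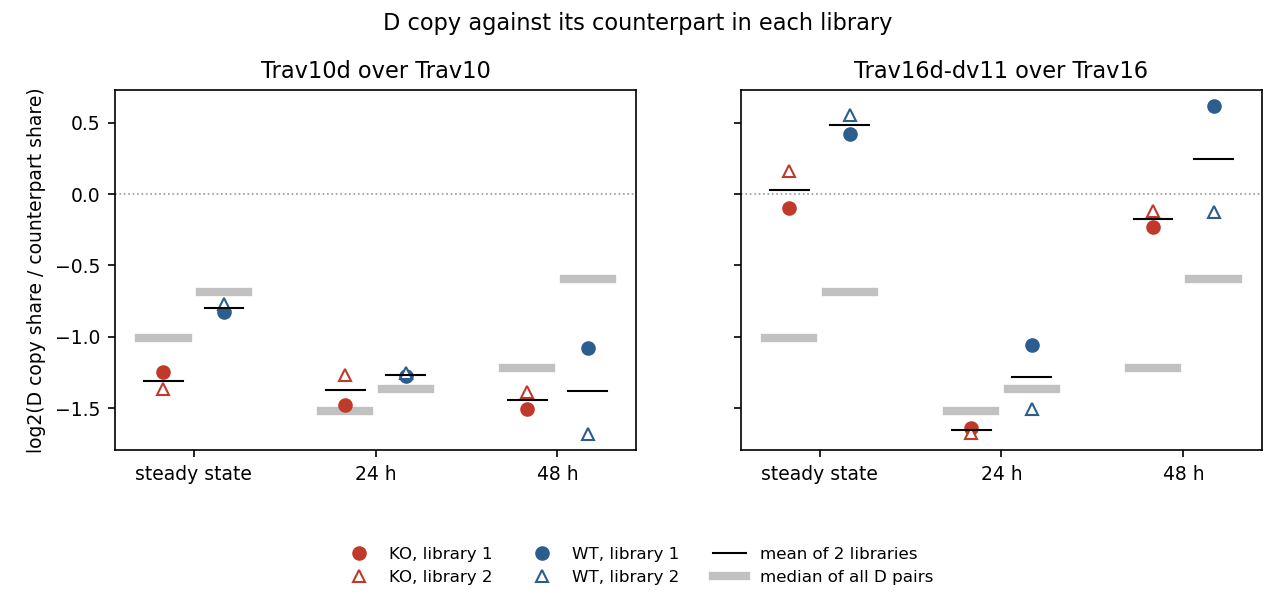
Log2 of the share of the D copy over the share of its counterpart (y axis) in each library, by sampling (x axis), for both pairs; symbols and bars as in the plot of shares, and grey bars the median over all 33 D pairs in that group. The Trav10 pair lies between -1.68 and -0.77 throughout, whereas the Trav16 pair lies above the grey bars at steady state and 48 h and close to them at 24 h.

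Between KO and WT at steady state the ratio differed by -0.51 ± 0.146 for Trav10d (limma over 33 D pairs, adjusted p = 0.067) and by -0.46 ± 0.168 for Trav16d-dv11 (adjusted p = 0.0776). Limma called 0 of the 33 pairs (0%), with 18 at an unadjusted p under 0.05, all lower in KO, and the median over the 33 was -0.49. With the replicate block 32 of 33 were called (97%), all lower in KO, among them Trav10d (adjusted p = 2.13e-07) and Trav16d-dv11 (adjusted p = 1.19e-06). That fit has 1 residual degree of freedom per pair and takes its spread from all 33 pairs together. It also rests on the pairing of same-numbered libraries, which no label states. At 24 h the ratio differed by -0.11 for Trav10d and -0.37 for Trav16d-dv11, and at 48 h by -0.07 and -0.42, in fits that called 0 of 33 (0%), with 0 and 1 pairs at an unadjusted p under 0.05. With the block limma called 0 at 24 h and 14 at 48 h (42.4%, all lower in KO), without Trav10d (adjusted p = 0.815) or Trav16d-dv11 (adjusted p = 0.212) at 48 h. In the mean of the 3 samplings the difference was -0.42 ± 0.193 for Trav16d-dv11 and -0.23 ± 0.171 for Trav10d, with 0 of 33 called (0%) and 7 at an unadjusted p under 0.05. With the block 23 of 33 were called (69.7%), including Trav16d-dv11 (adjusted p = 0.00684) but not Trav10d (adjusted p = 0.127). The lowest of the 33 were Trav4d-4 (-0.97) and Trav13d-3 (-0.92), and the highest Trav11d (0.12) and Trav8d-1 (-0.04).

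From 24 h to 48 h the ratio of Trav16d-dv11 to Trav16 differed by 1.48 ± 0.426 in KO and by 1.53 ± 0.426 in WT on the log2 scale. Limma without the block called 0 of 33 pairs in either genotype (0% each), with 4 in KO and 10 in WT at an unadjusted p under 0.05. With the block it called 9 in KO (27.3%) and 14 in WT (42.4%), all higher at 48 h, and Trav16d-dv11 was among them in KO (adjusted p = 0.0133) and in WT (adjusted p = 0.00633). In KO its difference ranked 4 of 33 from the highest, where the median was 0.10. In WT it ranked 11 of 33, where the median was 0.96. The ratio of Trav10d to Trav10 differed by -0.07 in KO and by -0.11 in WT and did not pass with the block (adjusted p = 0.955 and 0.741).

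The Traj partners of a segment were summarised by the mean Traj number, weighted by share, where a higher number lies farther 5'. Averaged over the libraries, Trav16 used the most 5' partners of the 4, although Trav10d exceeded it in replicate 1 of 24 h (47.4 against 46.3 in KO, and 43.6 against 43.5 in WT). Trav10d also exceeded it in the KO mean of 24 h (47.5 against 47.3). In KO replicate 1 of 24 h Trav10 was barely above it (46.306 against 46.304). Trav16 was above the mean of its library in 12 of 12 libraries, by 5.38 Traj numbers on average. Trav16d-dv11 was below the mean of its library in 11 of 12, with a mean difference of -3.05. These 2 differences passed an exact sign-flip permutation test added after the values were seen (adjusted p = 0.00195 over the 4 genes for each), whereas the mean differences of Trav10d (-0.01) and Trav10 (-0.13) did not pass (exact permutation adjusted p = 0.978 and 0.86). That of Trav10d averaged groups on both sides of the library mean. It was -0.148 ± 0.395 in KO at steady state (SD, n = 2), against -3.65 ± 0.441 in WT, 1.15 ± 0.942 in KO at 24 h, against 1.83 ± 0.146 in WT, and 2.12 ± 0.1 in KO at 48 h, against -1.40 ± 1.32 in WT. The excess of Trav16 was 6.70 ± 0.705 in KO at steady state (SD, n = 2), against 10.5 ± 1.16 in WT, but 0.916 ± 0.331 in KO at 24 h, against 2.29 ± 0.743 in WT. The library mean is weighted by share and can differ from the median segment. In WT at steady state Trav16d-dv11 had 27.2, where the median segment had 28.0. From the highest of 79, Trav16 ranked 9 to 24 over the 6 groups, and Trav16d-dv11 44 to 66. How many of the 79 segments lay on one side of their library mean was not counted.

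Trav16d-dv11 also had partners farther 3' than those of Trav16 in 12 of 12 libraries, with a mean difference of -8.43 Traj numbers (exact sign-flip permutation adjusted p = 0.000977). Within each genotype the mean gap was largest at steady state, where the libraries had -11.1 and -11.2 in KO, against -13.5 and -14.3 in WT. At 24 h it was -5.12 and -0.997 in KO, against -5.29 and -4.64 in WT. The gap at 48 h was -7.41 and -6.83 in KO, against -12.9 and -7.94 in WT. Of the 33 D copies, 7 (21.2%) lay below their counterpart in all 12 libraries, and the Trav16 pair ranked 7 of 33 from the lowest. KO minus WT, the difference between the copies was 2.65 on average, a smaller gap in KO, in a test added after the values were seen (exact permutation of genotype within sampling, adjusted p = 0.037 over the 2 pairs), and 6 of the 12 libraries, left out in turn, each took the adjusted p to between 0.0556 and 0.111, as did the replicate block (0.0625).

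Trav10d and Trav10 had no constant order. Trav10d minus Trav10 averaged 0.119 Traj numbers over 12 libraries (exact sign-flip permutation p = 0.885), positive in 7 of 12. It was 0.683 and -0.543 in KO at steady state, against -4.52 and -4.76 in WT. At 24 h it was 1.14 and -0.154 in KO, against 2.15 and 2.02 in WT. At 48 h it was 2.87 and 4.35 in KO, against -2.38 and 0.571 in WT. KO libraries thus exceeded WT libraries for this difference at 2 samplings and were exceeded by them at 24 h, without overlap, and the mean of the 3 differences was 2.55 (exact permutation adjusted p = 0.0741, added after the values were seen).

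By the mean Traj number averaged over the samplings, all 4 segments were joined to Traj segments farther 5' in KO mice than in WT mice. The mean Traj number of Trav10d was 36.7 and 34.6 in KO at steady state, against 27.4 and 26.5 in WT. It was 47.4 and 47.6 in KO at 24 h, against 43.6 and 44.7 in WT, and 40.6 and 40.7 in KO at 48 h, against 29.5 and 33.1 in WT. The difference averaged over the samplings was 7.12, rank 7 of 79 from the highest, and every KO library lay above both WT libraries of its sampling.

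For Trav10 the values were 36.1 and 35.2 in KO at steady state, against 31.97 and 31.2 in WT. They were 46.3 and 47.7 in KO at 24 h, against 41.5 and 42.7 in WT, and 37.7 and 36.3 in KO at 48 h, against 31.9 and 32.5 in WT. The average difference was 4.57, rank 43 of 79, again without overlap at any sampling.

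For Trav16d-dv11 the values were 31.7 and 31.0 in KO at steady state, against 27.6 and 26.9 in WT. They were 41.2 and 47.3 in KO at 24 h, against 38.2 and 41.2 in WT, and 35.3 and 34.4 in KO at 48 h, against 28.4 and 33.0 in WT. The average difference was 4.26, rank 48 of 79, without overlap, although at 24 h the lower KO library (41.18) barely exceeded the higher WT library (41.17).

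Trav16 moved least, with 42.8 and 42.2 in KO at steady state, against 41.1 and 41.1 in WT. It had 46.3 and 48.3 in KO at 24 h, against 43.5 and 45.8 in WT, and 42.7 and 41.2 in KO at 48 h, against 41.3 and 41.0 in WT. The average difference was 1.62, rank 76 of 79, and the genotypes overlapped at 48 h.

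With genotype permuted within sampling, the difference passed for all 4 genes (exact permutation test, two-sided, adjusted p = 0.0123 for Trav10d, Trav16d-dv11 and Trav10 and 0.0185 for Trav16, where 0.00926 is the smallest unadjusted p). It is shared with most of the repertoire: 54 of 79 segments (68.4%) had both KO libraries above both WT libraries at all 3 samplings, the median difference was 4.71, and the lowest 1.39. The permutation was not run on the other segments. The 54 meet a stricter rule, which Trav16 itself did not meet.

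**Figure D3:**
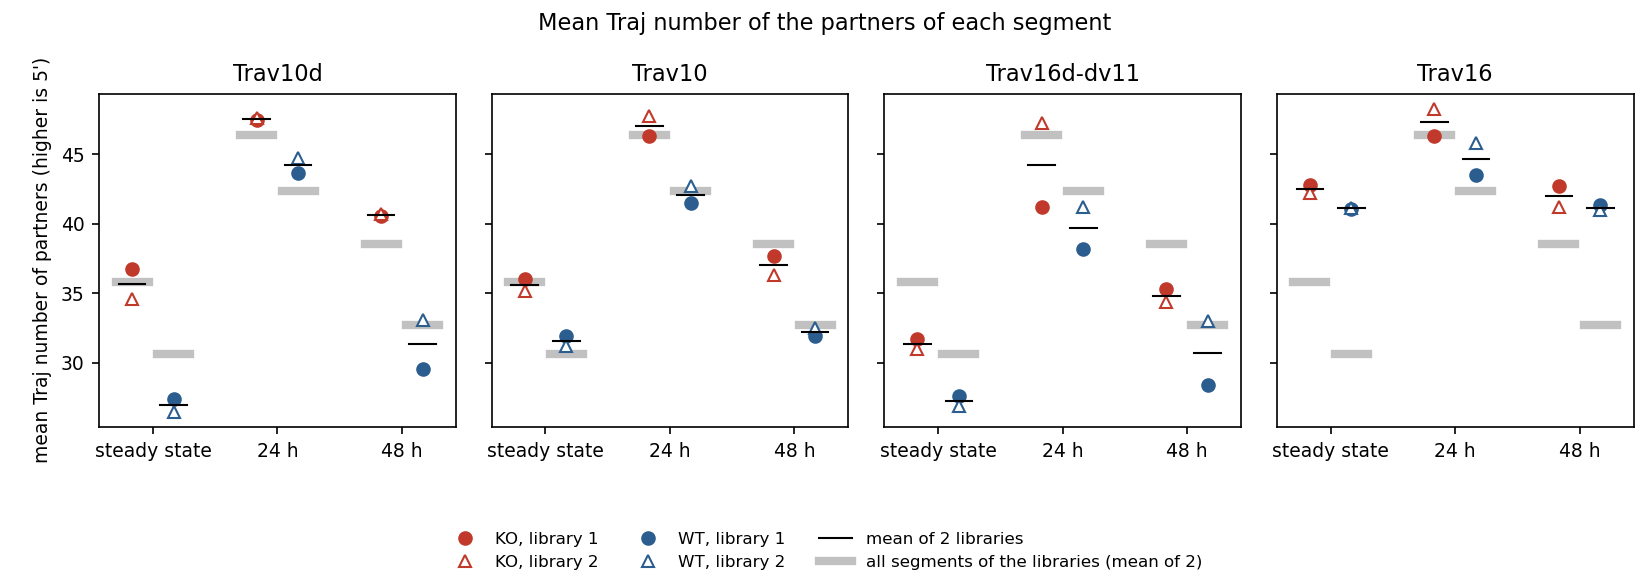
Mean Traj number of the partners of each segment (y axis, weighted by share, higher is 5') in each library, by sampling (x axis); symbols and bars as in the plot of shares, and grey bars the mean over all segments of the 2 libraries. Trav16 stays between 41.0 and 48.3, while Trav10d in WT covers 26.5 to 44.7.

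Between 24 h and 48 h the mean Traj number decreased for all 4 genes in KO and in WT. The change was -6.88 in KO and -12.8 in WT for Trav10d, -9.38 in KO and -8.95 in WT for Trav16d-dv11, -10.0 in KO and -9.86 in WT for Trav10, and -5.32 in KO and -3.48 in WT for Trav16. With time permuted within genotype each gene had p = 0.0556 (exact permutation, adjusted p = 0.0556), the smallest p this design can give, so it cannot pass 0.05. Over all 79 segments the median change was -8.31, and 68 (86.1%) had both 48 h libraries below both 24 h libraries in both genotypes.

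Neighbours on the chromosome, named here for their position, are given for steady state only. At steady state in WT, Trav8-2 and Trav13-4/dv7, beside Trav16 (41.1 ± 0.0454, SD, n = 2), stood at 41.9 ± 0.219 and 39.6 ± 4.90. Trav8d-2 and Trav13d-4, beside Trav16d-dv11 (27.2 ± 0.518), stood lower than it beyond the spread, at 23.7 ± 0.579 and 25.2 ± 0.498. Trav6d-5 and Trav6d-6, beside Trav10d (26.96 ± 0.677), stood at 27.9 ± 1.30 and 28.0 ± 1.09, and Trav6-5 and Trav6-6, beside Trav10 (31.6 ± 0.510), at 31.2 ± 0.632 and 32.4 ± 0.440. In WT at steady state each member was thus nearer to its own neighbours than to its copy. In KO at steady state this held for the Trav16 pair only. There Trav10d (35.7 ± 1.51) and Trav10 (35.6 ± 0.645) were nearer to each other than to their neighbours, which lay between 35.1 and 36.1, all within the spread of the libraries.

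The J array was also divided into the 13 segments Traj58 to Traj42 (5' window), the 16 segments Traj40 to Traj22 (middle window) and the 14 segments Traj21 to Traj2 (3' window). The shares below are of the segment's own total. In KO at steady state Trav10d had 43.3% ± 3.94 of its share in the 5' window (SD, n = 2), against 25.6% ± 0.435 in WT. Its 3' window held 23.1% ± 2.42 in KO, against 45.2% ± 2.12 in WT. Trav10 had 38.6% ± 2.21 in the 5' window in KO, against 30.4% ± 1.28 in WT, and 18.4% ± 1.32 in the 3' window in KO, against 27.5% ± 0.793 in WT. Both copies had a lower 3' share in KO than in WT without overlap, by a wider margin for Trav10d.

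Trav16d-dv11 was centred on the middle window, with 48.0% ± 0.894 in KO at steady state, against 43.4% ± 1.32 in WT, and its 3' window held 25.4% ± 0.837 in KO, against 36.8% ± 1.86 in WT. Trav16 was centred on the 5' window, with 63.1% ± 0.621 in KO, against 58.6% ± 0.832 in WT, and its 3' window held 7.17% ± 0.671 in KO, against 9.81% ± 0.125 in WT. At 24 h the 5' window led in every library of Trav10d, Trav10 and Trav16, with 75.0% to 81.1% in KO, against 57.1% to 72.0% in WT. Trav16d-dv11 had 58.1% and 76.0% there in KO, against 45.1% and 54.7% in WT, where in replicate 1 the middle window held slightly more (45.4%). At 48 h Trav10d had 54.6% and 55.3% in the 5' window in KO, against 25.2% and 25.7% in WT. Trav16d-dv11 had 35.6% and 28.8% in KO, against 18.6% and 31.7% in WT, which overlapped. Trav10 had 42.96% and 36.1% in KO, against 28.7% and 27.4% in WT. For Trav16 the genotypes overlapped, with 63.1% and 51.7% in KO, against 59.2% and 62.6% in WT. Its mean in this window was lower in KO (57.4%) than in WT (60.9%).

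The leading partners over all 12 libraries were Traj31, Traj49 and Traj52 for Trav10, Traj56, Traj49 and Traj53 for Trav10d, Traj49, Traj52 and Traj56 for Trav16, and Traj42, Traj32 and Traj31 for Trav16d-dv11. In KO at steady state Traj49 led for Trav10d, with 5.26% ± 0.885 of its share (SD, n = 2), whereas Traj2, the last of the listed segments, led in WT with 4.51% ± 0.511. Traj31 led for Trav10 in KO with 6.16% ± 0.0926 and in WT with 5.50% ± 0.441. Among the 3 leading partners over all 12 libraries a D copy and its counterpart had Traj49 in common in the Trav10 pair and none in common in the Trav16 pair. Within single groups they could share the first: Traj52 led for Trav16d-dv11 (10.1% ± 5.53) and for Trav16 (9.94% ± 0.795) in KO at 24 h, and Traj31 led for Trav10d (7.49% ± 4.22) and for Trav10 (7.99% ± 2.99) in KO at 48 h.

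**Figure D4:**
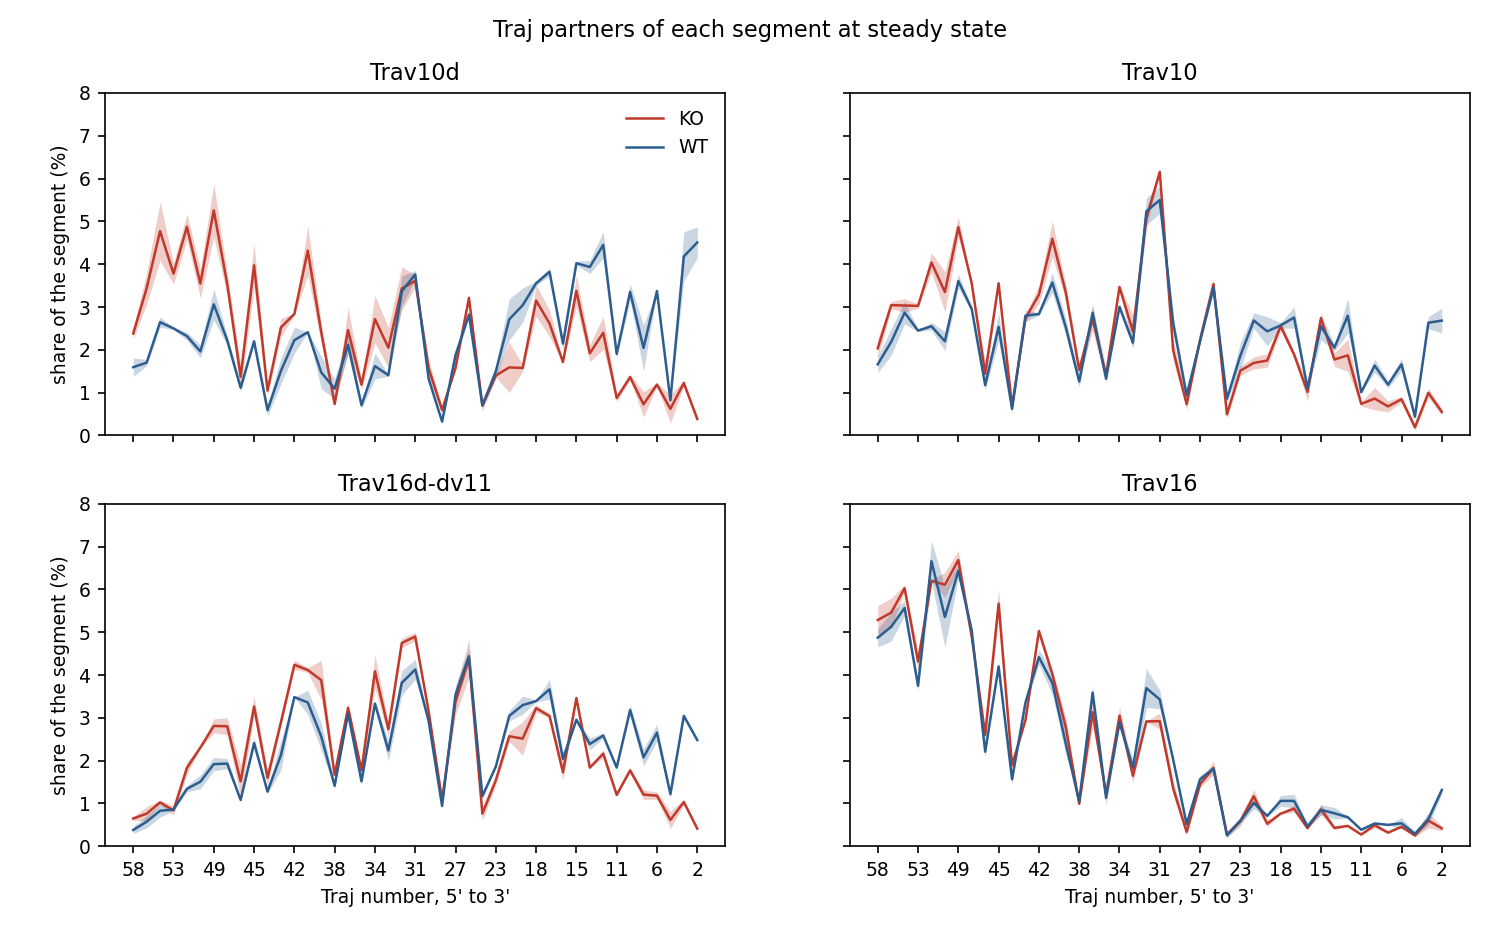
Share of each segment's own total (y axis, percent) taken by each of the 43 Traj segments in 5' to 3' order (x axis) at steady state, with lines at the mean and bands from the lower to the higher of 2 libraries, red KO and blue WT. Trav16 is highest in the 5' window, Trav16d-dv11 is low at the 5' end, and Trav10d is higher in KO at the 5' end and higher in WT (4.51%) at Traj2.

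Pair by pair at steady state, limma called 366 of 3397 pairs between KO and WT (10.8%), 55 higher in KO (1.62%) and 311 lower (9.16%). Among the 172 pairs of the 4 genes 20 were called, 2 higher and 18 lower, a share close to the 10.8% over all pairs. Trav10d had 9 of its 43, all lower in KO, and Trav16d-dv11 had 6, all lower. Trav10 had 2 lower and 1 higher, and Trav16 had 1 lower and 1 higher. The 18 lower pairs all lay in the 3' window and the 2 higher ones in the 5' window. The windows of the 311 lower and 55 higher pairs over all segments were not counted, so this placement cannot be called particular to the 4 genes. Each D copy had more lower pairs than its counterpart, a difference that was not tested.

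Traj2 was the partner called lower in KO with all 4 genes. Trav10d with Traj2 held 0.00178% and 0.00202% of the KO tables, against 0.0271% and 0.0342% of the WT tables, a difference of -1.77 ± 0.131 on the log2(percent + 0.01) scale (limma adjusted p = 0.00587), which understates the fold of such low shares. Trav16d-dv11 with Traj2 held 0.00677% and 0.00605% in KO, against 0.0424% and 0.0434% in WT (-1.69 ± 0.105, limma adjusted p = 0.00465). Trav10 with Traj2 held 0.00748% and 0.00605% in KO, against 0.0279% and 0.0358% in WT (-1.31 ± 0.14, limma adjusted p = 0.0103). Beyond the 10 pairs of widest difference, and picked after the values were seen, Trav16 with Traj2 held 0.00784% and 0.00504% in KO, against 0.0153% and 0.0169% in WT (-0.67 ± 0.132, limma adjusted p = 0.0403). No KO library overlapped a WT library in any of the 4. How many of the other Trav segments with Traj2 were called, or were apart in this way, was not counted.

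With Traj4, the KO tables held 0.00570% and 0.00639% for Trav10d, against 0.0235% and 0.0334% in WT (-1.25 ± 0.157, limma adjusted p = 0.0136). They held 0.0149% and 0.0171% for Trav16d-dv11, against 0.0506% and 0.0547% in WT (-1.27 ± 0.114, limma adjusted p = 0.00712), and 0.0131% and 0.0114% for Trav10, against 0.0291% and 0.0334% in WT (-0.89 ± 0.119, limma adjusted p = 0.0159). Trav16 with Traj4 held 0.00713% and 0.0107% in KO, against 0.00628% and 0.00925% in WT, which overlapped. The other 4 of the 10 widest were Trav10d with Traj6 (-1.05 ± 0.106, limma adjusted p = 0.00922), Traj9 (-0.96 ± 0.105, adjusted p = 0.0106) and Traj13 (-0.91 ± 0.112, adjusted p = 0.0131) and Trav16d-dv11 with Traj6 (-0.98 ± 0.131, adjusted p = 0.0159), all lower in KO. Of the 2 higher pairs, also picked after the values were seen, Trav16 with Traj45 held 0.0880% and 0.0837% in KO, against 0.0526% and 0.0507% in WT (0.64 ± 0.106, limma adjusted p = 0.0274). Trav10 with Traj52 held 0.0509% and 0.0490% in KO, against 0.0287% and 0.0318% in WT (0.58 ± 0.11, limma adjusted p = 0.0372).

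**Figure D5:**
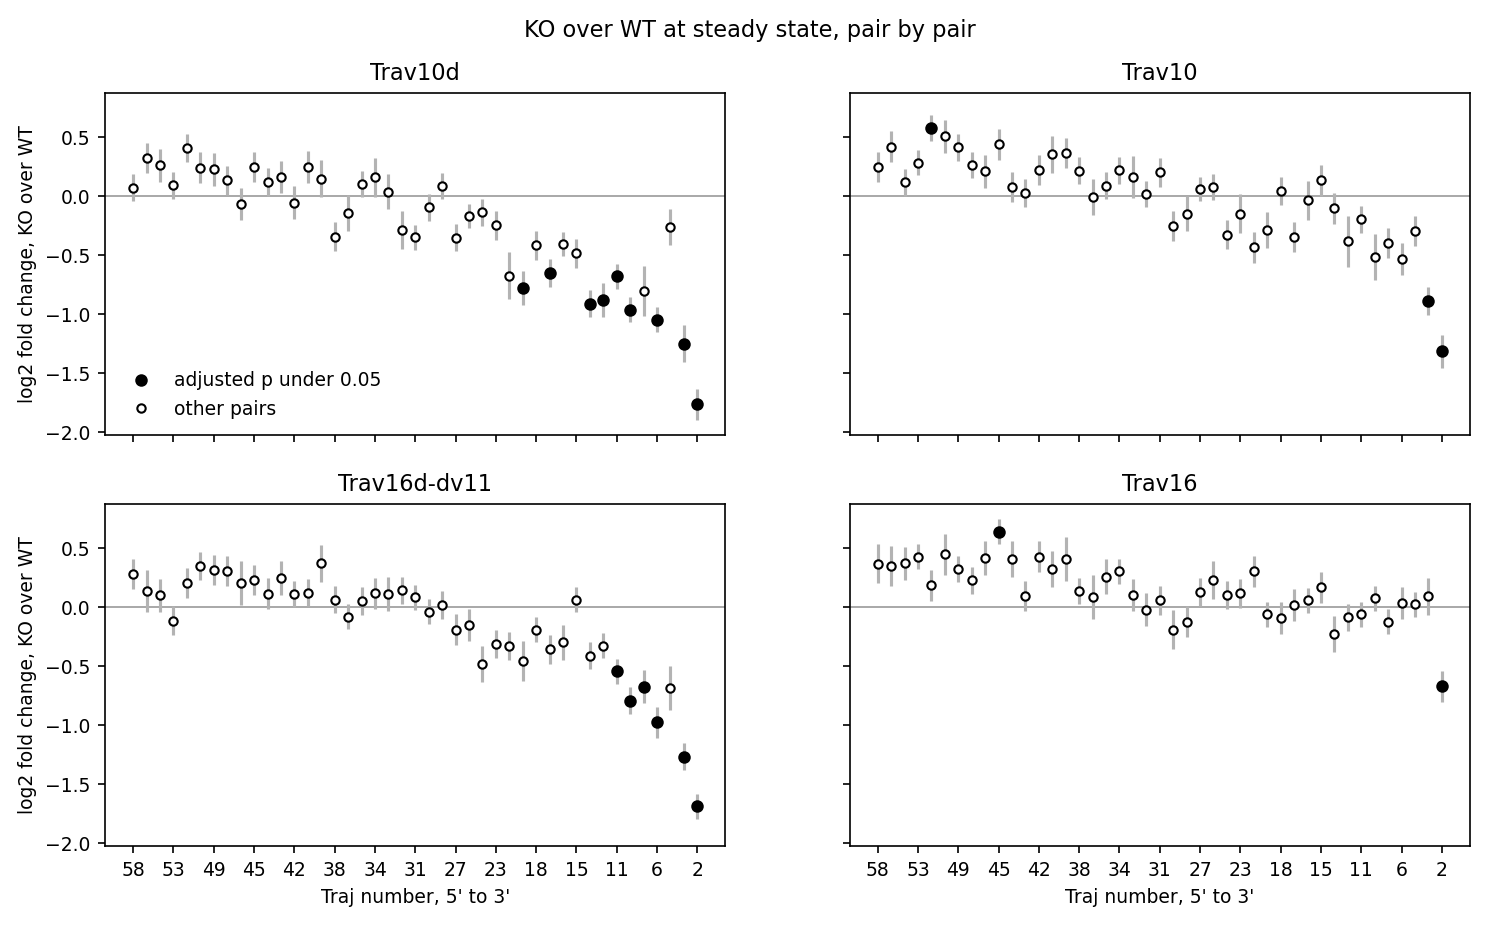
Log2 fold change of each pair, KO over WT at steady state on the log2(percent + 0.01) scale (y axis), against the Traj segment in 5' to 3' order (x axis); bars are SE from limma, filled points have an adjusted p under 0.05. The values slope down toward Traj2, to -1.77 for Trav10d, -1.69 for Trav16d-dv11 and -1.31 for Trav10, whereas for Trav16 the filled point below 0 is Traj2 at -0.67.

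Over the 14 pairs of the 3' window the median difference at steady state was -0.79 for Trav10d, -0.50 for Trav16d-dv11, -0.32 for Trav10 and -0.02 for Trav16. Over the 13 pairs of the 5' window it was 0.16, 0.21, 0.26 and 0.37 in the same order of genes. With the replicate block 847 pairs were called (24.9%), 33 of them among the 172. The 366 calls without the block need all 4 steady-state libraries: with any 1 of them left out limma called 0 of 3397, and 10 were called in a single fit of all 12 libraries. At 24 h and 48 h 0 of 3397 were called with or without the block (0%), with 144 and 110 at an unadjusted p under 0.05 in the fit without it. In the mean of the 3 samplings 37 pairs were called (1.09%), all lower in KO, of which 5 were among the 172, Trav10d with Traj9, Traj6 and Traj2, Trav16d-dv11 with Traj2, and Trav10 with Traj2. The block called 76 (2.24%), 6 of them among the 172. The count of 37 was 0 of 3397 without any 1 steady-state library, without either KO library of 24 h or without WT replicate 2 of 24 h, 14 without WT replicate 1 of 24 h or KO replicate 2 of 48 h, and 89, 129 and 294 without KO replicate 1, WT replicate 1 and WT replicate 2 of 48 h.

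Across the 12 libraries, the share of Trav10d was most like that of Trav14d-1 (Pearson r of log2(percent + 0.01) = 0.905, n = 12), Trav15d-2/dv6d-2 (0.889) and its counterpart Trav10 (0.870). Trav10 was most like Trav15d-2/dv6d-2 (r = 0.961), Trav15-2/dv6-2 (0.936) and Trav10d. Trav16d-dv11 was most like Trav6d-4 (r = 0.977), Trav7d-2 (0.974) and Trav14d-2 (0.969), and Trav16 like Trav8-2 (r = 0.889), Trav19 (0.862) and Trav6-7/dv9 (0.857). Trav16d-dv11 and Trav16 had r = -0.12. These values are descriptions: the 12 points share their tables, and the kind of table and the sampling move many segments together.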

How the data were processed

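The Tcra repertoires of 12 libraries were analysed. Per the file headers and the labels, the authors deposited, for each library, the fraction of transcripts joining each Trav to each Traj. What aligner, build, segment reference and rule for near-identical copies were used was not given in the sources used here, and the depth is unknown. The fractions of 4 tables summed to nearly 2, so each was divided by its table's own sum.

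Groups were compared with limma 3.58.1 (R 4.3.3) on log2(percent + 0.01), with a mean per group, 2 residual degrees of freedom per sampling, 4 for 24 h with 48 h and 6 for the mean of the 3 samplings. Benjamini-Hochberg adjustment ran over all 79 segments, 33 D pairs or 3397 pairs, with a threshold of 0.05. Single values per library were tested with exact permutations in Python 3.11.15 (numpy 2.4.6, pandas 2.3.3, scipy 1.17.1; plots with matplotlib 3.10.9). The scripts of the limma fits and of the permutations were tested on simulated data. Sequences and positions came from GENCODE M21 and GRCm38.

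Same-numbered KO and WT libraries deviated together (r across segments of 0.723 for steady state, 0.927 for 24 h and 0.931 for 48 h, and 0.88 in KO and 0.892 in WT between 48 h and 24 h), so the replicate number was also fitted as a block. No label states that same-numbered libraries belong together. The alternatives were other pseudocounts (0.1 and 0.001), a filter on low shares, shares of the segments in every table, a centred log scale, a fit of all 12 libraries, replicate 1 alone after tamoxifen, and each library left out. Tests of the mean Traj number, except that against the library mean, also used the Traj rank in place of the number. They were run as well without pairs at or near the smallest share above 0 of their table.

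The members, lists and tests were chosen with earlier results of these data known. The text names each member, its 3 leading Traj partners, at most 10 called pairs per comparison with the widest differences, the 3 segments most alike, and the 2 highest and 2 lowest D pairs. Exceptions are stated.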

Additional observations from a re-analysis of the deposited data

Results flagged for a closer look

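The mean Traj number of Trav10d minus that of Trav10 stood out because the genotype difference pointed in opposite ways at different samplings. KO minus WT, it was 4.71 in steady-state libraries, -1.60 in those of 24 h and 4.52 in those of 48 h, with no overlap between the 2 KO and 2 WT libraries at any sampling. The difference between samplings was not tested. It came from 36 pairs of samplings compared over 12 measures, and read assignment between copies whose second exons differ at 2 bases was not tested.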

How the results depend on the processing

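With 2 libraries per group, near-identical copies and no counts, small differences were not resolvable, and at 24 h and 48 h the replicate cannot be told apart from the kind of table. Among the counts over all features and the tests of a single value, 426 values under the alternatives kept their side of the threshold or their size, 46 moved and 7 lost the threshold. Among the single genes and pairs 708 kept it, 165 lost it, 12 gained it and 5 moved. No value past its threshold changed sign. The replicate block raised the counts of Trav segments called to 41 (steady state), 3 (24 h), 1 (48 h), 34 (mean of the 3), 18 (48 h minus 24 h in KO) and 37 (in WT), all from 0. For D pairs it gave 32 (steady state), 14 (48 h), 23 (mean), 9 (48 h minus 24 h in KO) and 14 (in WT), and for Trav and Traj pairs 847 (steady state) and 76 (mean). With the block the Trav16 copies' difference between genotypes in mean Traj number stayed 2.65 with an exact permutation adjusted p of 0.0625. The block changed no other call among these counts and single values.

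A fit of all 12 libraries called 1 Trav segment for 48 h minus 24 h in KO and 1 in WT, 9 D pairs in WT and 10 Trav and Traj pairs at steady state. On the centred log scale 1 Trav segment was called for 48 h minus 24 h in WT, and 7 pairs in the mean. A pseudocount of 0.001 gave 220 pairs at steady state and 2 in the mean, 0.1 gave 98 in the mean, and the filter on low shares gave 1. With each library left out in turn, the Trav segments called at steady state ran from 0 to 1, D pairs in the mean from 0 to 1, pairs at steady state were 0 each time against 366, and pairs in the mean ran from 0 to 294. The Trav16 copies' genotype difference ran from 1.81 to 3.48. Replicate 1 alone after tamoxifen gave 48 h minus 24 h of -9.08 for Trav10 and -2.85 for Trav16, and Trav10d minus Trav10 of -0.67. Steady-state libraries alone gave log2 ratios of -1.05 for Trav10d and 0.26 for Trav16d-dv11, against -0.39 over all 12, neither direction being a call. Beyond the smaller number of libraries in some of these settings, the cause was not tested.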
